A study of Mus musculus with 12 samples.

Results

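The genes described here carry out autophagy and lysosomal degradation. They are 36 genes chosen by symbol, and not by any measured value, from the kinases that start the process to the hydrolases that end it. Probes were assigned through the gene symbols of the platform annotation, and 34 of the 36 genes had at least 1 probe on the array, with 67 probes among the 45281 of the series. Atg14 and Optn had none. A probe entered the tests when its signal reached 100 on at least 3 of the 12 arrays, and 31 genes with 50 probes did so, among 8553 genes and 15255 probes in all. Gabarapl2, Bnip3 and Tfeb stayed below that level with every probe.

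The cells were HT-22, a mouse hippocampal line immortalized with the SV40 T antigen, grown with serum cleared of thyroid hormone and steroids. For 4 h before harvest they were held without serum in 1 of 4 conditions, each with 3 arrays (Illumina Mouse WG-6 v2.0): 30 nM of the thyroid hormone 3,5,3'-triiodothyronine (T3) together with 100 nM of the glucocorticoid corticosterone (CORT), CORT alone at 100 nM, T3 alone at 30 nM, or vehicle. All 4 groups, vehicle included, received the solvents (0.03% DMSO and 0.001% ethanol) and the change to serum-free medium. Values are normalized hybridization signals, in arbitrary units, of RNA from whole cultures, so that fewer cells of a kind and less RNA per cell cannot be told apart.

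Macroautophagy begins when the ULK kinase complex and the class III lipid kinase built on Beclin 1 mark a site on the endoplasmic reticulum, where lipid transfer proteins and WIPI proteins feed a growing double membrane. A ubiquitin-like conjugation system then attaches LC3 and GABARAP proteins, the mammalian Atg8 family, to that membrane, and receptors such as p62 bind these proteins and bring in cargo. The closed autophagosome fuses with a lysosome, whose cathepsins and other hydrolases digest the content. TFEB and TFE3 are transcription factors that activate many of these genes when lysosomes or nutrients run short, and neurons rely on the pathway because they do not dilute waste by division.

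The hormone treatments were visible on these arrays. Klf9, a direct target of both nuclear receptors, had signals of 4686 to 5411 with T3+CORT, 1811 to 2099 with CORT, 2595 to 3006 with T3 and 876 to 963 with vehicle. Fkbp5, a glucocorticoid target, rose by 1.30 on the log2 scale with T3+CORT and 1.42 with CORT, and was at -0.05 (adjusted p = 1.0) with T3. Of 12 neuronal marker genes with a probe, 2 (Eno2 and Syn1) were tested and 10, with Rbfox3, Map2, Tubb3 and the neurofilament genes among them, were below the limit, as were 9 of 10 glial and immune markers, whereas 11 of 13 fibroblast and mesenchymal markers were tested. Array medians lay between 71.2 and 71.3, and the number of probes at or above 100 between 14507 and 14518. The normalization gave all arrays nearly 1 distribution, so this likeness is not a check of the arrays. T3 replicate 2 stood apart, with a correlation to the other T3 arrays of 0.987 to 0.9906, against 0.995 to 0.9975 within each of the other groups.

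Against vehicle, CORT changed a minority of these genes, in both directions, and T3 changed none, and no brightest probe that passed reached 1.5-fold. Each gene is represented by its brightest tested probe, and its other probes are given where they differ. With T3+CORT against vehicle 4 of the 31 genes passed the test (12.9%, limma with Benjamini-Hochberg adjusted p under 0.05), where 26.5% of all 8553 genes did. Map1lc3b and Atg12 rose, and Gabarap and Wipi2 fell. With CORT against vehicle 7 of 31 passed (22.6%, against 26.3% of all genes): Map1lc3b, Atg12 and Atg2a rose, and Mcoln1, Gabarap, Wipi2 and Ulk1 fell. With T3 against vehicle 0 of 31 passed, where 0.105% of all genes did, and 0 had an unadjusted p under 0.05 (5.45% of all genes). These 3 comparisons share the vehicle arrays. At an unadjusted p under 0.05 the numbers were 6 with T3+CORT (40.0% of all genes) and 10 with CORT (39.2%).

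In each hormone group the genes as a set were centred near 0. Their median log2 fold change was 0.01 with T3+CORT, -0.01 with CORT and 0.00 with T3, beside -0.01, -0.01 and 0.00 over all genes tested. A positive log2 fold change was seen in 18 of the 31 with T3+CORT and in 14 of 31 with CORT. The shares called were near or below those of all genes, so the counts say nothing particular to the pathway. By brightest probe none of the 31 reached 1.5-fold with an unadjusted limma p under 0.02 in any group against vehicle. These are the limits set in the study's methods, and 2.97% of all genes met them with T3+CORT, 3.06% with CORT and 0.0818% with T3. A dimmer probe of Ulk2 did exceed 1.5-fold, with log2 fold changes of 0.62 with T3+CORT and 0.63 with CORT. Over all 50 tested probes of these genes, 7 passed with T3+CORT (24.1% of all 15255 probes) and 11 with CORT (24.4%).

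**Figure D1:**
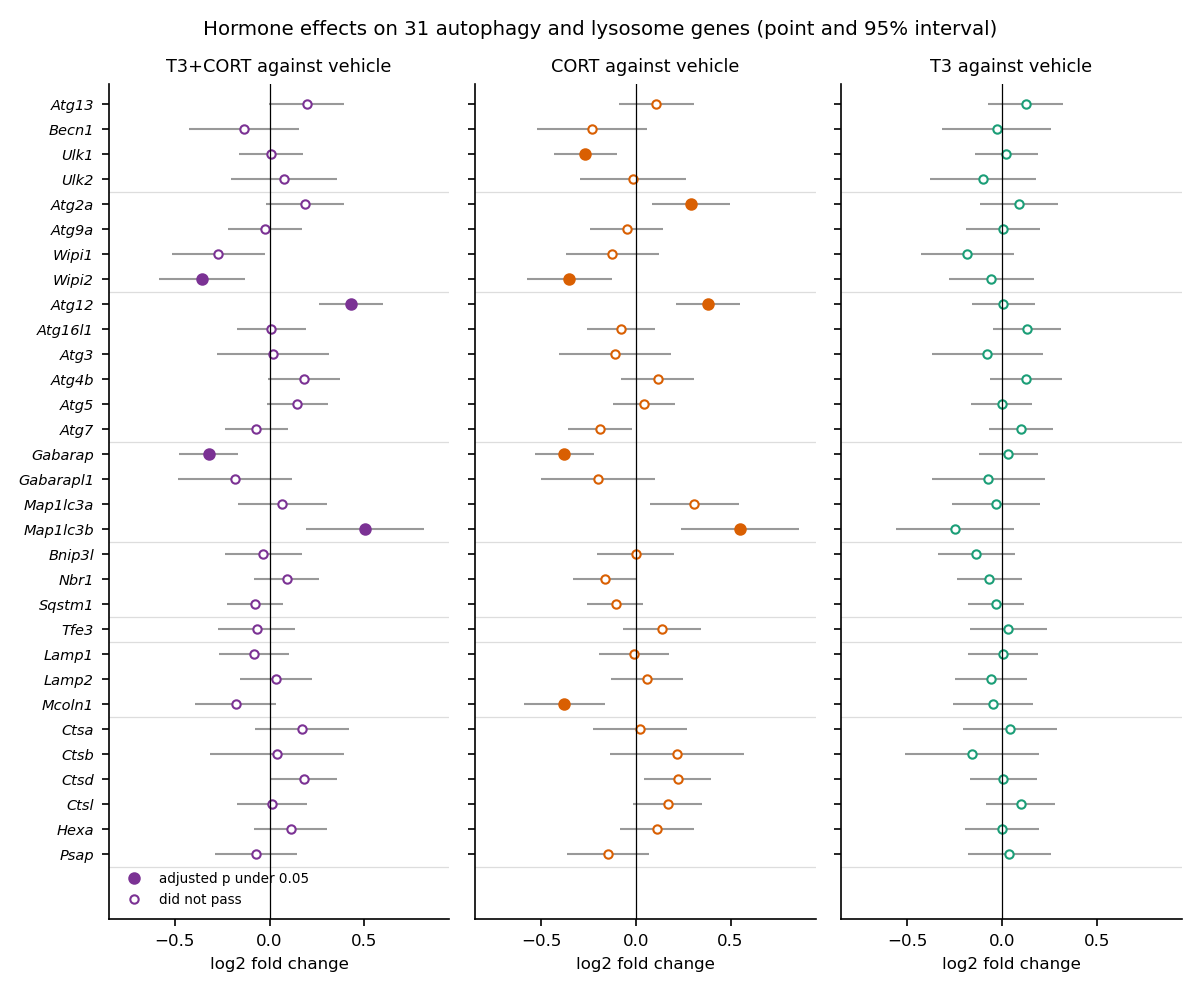
Log2 fold change against vehicle (horizontal axis) of the 31 tested genes, in rows ordered by role from initiation to hydrolases, with T3+CORT on the left, CORT in the middle and T3 on the right. Points are limma estimates with 95% intervals and filled points have an adjusted p under 0.05: 4 with T3+CORT, 7 with CORT and 0 with T3.

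The counts depended on single arrays. With T3+CORT the number called was 2 without vehicle replicate 1 or without T3+CORT replicate 3. With CORT it was 3 without vehicle replicate 1, 4 without vehicle replicate 2, 4 without CORT replicate 3 and 9 without T3 replicate 2, which is in neither group and enters through the shared estimate of spread. The share of all genes called was not counted in the fits without an array. Whether these shifts are particular to the pathway cannot be told. Atg12 and Gabarap passed with both treatments whichever array was left out. Some RNA measures and markers moved in the same arrays. Rnu6, the U6 small nuclear RNA, had signals of 11413 to 15170.4 with T3+CORT and 11528 to 12350.5 with CORT, against 25539 to 28061 with T3 and 26038 to 28884 with vehicle. Of 3 genes often used as references, Ppia did not pass with either of its probes (log2 fold changes of 0.02 and 0.02 with T3+CORT, 0.04 and 0.10 with CORT), and Gapdh was at -0.23 (adjusted p = 0.020) with T3+CORT and -0.16 (adjusted p = 0.10) with CORT. Actb had 5 tested probes, of which 4 passed with both treatments, 2 higher (log2 fold changes of 0.54 and 0.38 with T3+CORT, 0.73 and 0.33 with CORT) and 2 dim ones lower (-0.63 and -0.76 with T3+CORT, -0.60 and -0.64 with CORT). Slc1a3, the 1 tested glial marker, read 853 to 896 with T3+CORT and 968 to 1194 with CORT, against 1084 to 1192 with T3 and 1092 to 1178 with vehicle, and the summed signal of its list of 10 was 1492 to 1533, 1608 to 1847, 1708 to 1838 and 1721 to 1806 in the same order. The summed signal of all 13 mesenchymal markers, which a few bright probes dominate, was 34695 to 37476 with T3+CORT and 40472 to 42931 with CORT, against 36933 to 39879 with T3 and 35384 to 38449 with vehicle. Of that list Pdgfra (0.78, adjusted p = 4.1e-04), Dcn (0.50, adjusted p = 6.4e-04) and Col5a1 (0.41, adjusted p = 0.0034) rose with CORT by brightest probe. Col3a1 rose with a dimmer probe only (0.70, adjusted p = 2.7e-04), at 0.24 (adjusted p = 0.44) with its brightest. Vim, Col1a1, Col1a2, Thy1, Pdgfrb and S100a4 did not pass with CORT. With T3+CORT Pdgfra alone passed by brightest probe (0.47, adjusted p = 0.012). With CORT Acta2 fell with dimmer probes (-0.63, adjusted p = 5.4e-04 for the largest fall), while its brightest probe did not pass (-0.13, adjusted p = 0.21). The neuronal Syn1 fell with its dimmer probe, at -0.38 with T3+CORT (adjusted p = 0.0077) and with CORT (adjusted p = 0.0078). Its brighter probe and Eno2 did not pass. The summed neuronal signal was 1187 to 1234.5 with T3+CORT, 1173 to 1240 with CORT, 1236 to 1272 with T3 and 1182 to 1241 with vehicle. The part of these measures in the counts was not tested.

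Initiation came first in the order of roles, and there CORT lowered Ulk1, which encodes the protein kinase that starts autophagosome formation. The Ulk1 signal was 283, 287 and 266 on the T3+CORT arrays, 227, 241 and 223 on the CORT arrays, 287, 292 and 265 on the T3 arrays and 283, 280.1 and 267 on the vehicle arrays. The 3 CORT arrays were the lowest of all 12 and did not overlap any other group, while the T3+CORT arrays lay within the range of T3 and vehicle. The log2 fold change was 0.01 (95% interval -0.16 to 0.18, adjusted p = 0.95) with T3+CORT and -0.27 (95% interval -0.43 to -0.10, adjusted p = 0.023) with CORT. A second Ulk1 probe read 164 to 188 with T3+CORT, 155 to 167 with CORT, 204 to 215 with T3 and 183 to 194 with vehicle, and it also fell with CORT, by 0.24 on the log2 scale (adjusted p = 0.040). The CORT call of the brighter probe was lost without vehicle replicate 1, vehicle replicate 2, CORT replicate 1 or CORT replicate 3, with adjusted p up to 0.082, and that of the second probe without any 1 of 5 arrays (the 3 vehicle arrays, CORT replicate 2 and CORT replicate 3), with adjusted p up to 0.13.

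Ulk2, the close relative of Ulk1, read differently with its pair of tested probes. The brighter probe read 436, 448 and 521 on the T3+CORT arrays, 468, 433 and 418 on the CORT arrays, 508, 328 and 424 on the T3 arrays and 396, 443 and 495 on the vehicle arrays. All 4 groups overlapped, and the log2 fold change was 0.08 (adjusted p = 0.71) with T3+CORT and -0.01 (adjusted p = 0.96) with CORT. The dimmer probe (ILMN_2496817) read 331, 363 and 394 on the T3+CORT arrays, 372, 382 and 339.5 on the CORT arrays, 304, 217 and 243 on the T3 arrays and 231, 240.4 and 236 on the vehicle arrays. Its T3+CORT and CORT arrays all lay above the T3 and vehicle arrays, and it rose by 0.62 (95% interval 0.39 to 0.85, adjusted p = 9.5e-04) on the log2 scale with T3+CORT and 0.63 (95% interval 0.40 to 0.86, adjusted p = 8.6e-04) with CORT. Both calls of this probe held whichever array was left out. It was described after its values were seen, and whether the probes read different transcripts cannot be told from the files used here.

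Atg13, the scaffold of the ULK complex, and Becn1, which encodes Beclin 1 of the lipid kinase complex, did not pass in any comparison. Atg13 had a log2 fold change of 0.20 (adjusted p = 0.14) with T3+CORT and 0.11 (adjusted p = 0.43) with CORT. Becn1 was at -0.13 (adjusted p = 0.50) with T3+CORT and -0.23 (adjusted p = 0.23) with CORT. It spread widely on the T3 arrays, with signals of 489, 807 and 642, the highest on replicate 2. Atg14, the subunit that directs the lipid kinase complex to autophagy, had no probe.

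Among the genes for membrane supply, Wipi2 fell with both CORT treatments with 2 of its 3 tested probes. It encodes the phosphoinositide-binding protein that recruits the conjugation machinery to the growing membrane. Its signal was 459, 432 and 414 on the T3+CORT arrays, 468, 423 and 421 on the CORT arrays, 537, 587 and 486 on the T3 arrays and 655, 537 and 489.8 on the vehicle arrays. The T3+CORT and CORT arrays all read below the T3 and vehicle arrays, and vehicle replicate 1 was the highest of all. The log2 fold change was -0.36 (95% interval -0.58 to -0.13, adjusted p = 0.023) with T3+CORT and -0.35 (95% interval -0.58 to -0.12, adjusted p = 0.025) with CORT. A second probe fell as well, by 0.35 on the log2 scale with T3+CORT (adjusted p = 0.017) and by 0.32 with CORT (adjusted p = 0.028). The calls of the second probe ended without vehicle replicate 1 or T3+CORT replicate 2 for T3+CORT, and without vehicle replicate 1, vehicle replicate 2, CORT replicate 2 or CORT replicate 3 for CORT. The third Wipi2 probe did not pass against vehicle, at 0.11 (adjusted p = 0.41) with T3+CORT and -0.07 (adjusted p = 0.60) with CORT. It read 140 to 148 with T3+CORT, above the T3 arrays at 103 to 135, and passed as a rise in that comparison. The T3+CORT call of the brightest probe was lost without vehicle replicate 1, T3+CORT replicate 2 or T3+CORT replicate 3 (adjusted p up to 0.14), and the CORT call without vehicle replicate 1, vehicle replicate 2, CORT replicate 2 or CORT replicate 3 (adjusted p up to 0.15).

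Atg2a, which encodes a protein that carries lipid into the growing membrane, had probes that passed with CORT in opposite directions. Its brightest probe read 363, 373 and 412 on the T3+CORT arrays, 390.0, 428 and 414 on the CORT arrays, 406, 322 and 347 on the T3 arrays and 354, 344 and 309 on the vehicle arrays. The CORT arrays lay above vehicle without overlap, and the log2 fold change was 0.19 (95% interval -0.02 to 0.40, adjusted p = 0.17) with T3+CORT and 0.29 (95% interval 0.09 to 0.50, adjusted p = 0.039) with CORT. A dimmer probe (ILMN_1213779) read 170.0, 181 and 162 on the T3+CORT arrays, 162, 176 and 152 on the CORT arrays, 244, 207 and 230.5 on the T3 arrays and 205, 202 and 200.2 on the vehicle arrays. Here the T3+CORT and CORT arrays all lay below the T3 and vehicle arrays, and the signal fell with CORT by 0.31 on the log2 scale (adjusted p = 0.017) and was at -0.24 (adjusted p = 0.055) with T3+CORT. The third tested probe was at -0.01 (adjusted p = 0.93) with T3+CORT and -0.14 (adjusted p = 0.26) with CORT. So the direction of Atg2a with CORT is not settled by these probes. The rise was lost when any 1 of 7 arrays was left out (the 3 vehicle arrays, the 3 CORT arrays and T3+CORT replicate 2), with adjusted p up to 0.16, and the fall of the dimmer probe without vehicle replicate 1 or CORT replicate 3.

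Atg9a, the lipid scramblase carried on vesicles to the forming membrane, and Wipi1, a relative of Wipi2, did not pass. Atg9a stayed between 113 and 137 over the 12 arrays, and all 4 groups overlapped. Wipi1 read 786 to 1076 with T3+CORT, 998 to 1020.2 with CORT, 848 to 1157 with T3 and 1061 to 1129 with vehicle, and its log2 fold change was -0.27 (adjusted p = 0.098) with T3+CORT and -0.13 (adjusted p = 0.46) with CORT.

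**Figure D2:**
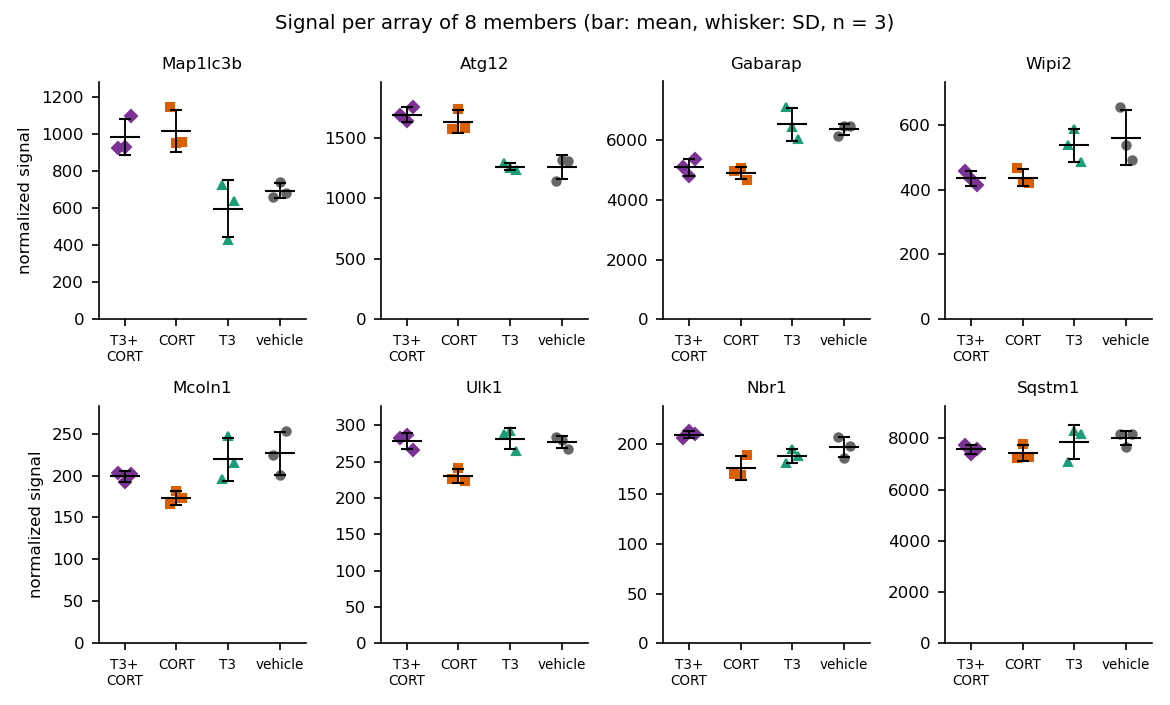
Normalized signal (arbitrary units, vertical axis from 0) of 8 genes on each array, with T3+CORT, CORT, T3 and vehicle from left to right; symbols are arrays, bars are means and whiskers SD (n = 3 arrays). Map1lc3b and Atg12 sit higher, and Gabarap and Wipi2 lower, on every T3+CORT and CORT array than on every T3 and vehicle array, whereas Mcoln1 and Ulk1 are lowest on the CORT arrays.

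In the conjugation machinery 1 of 6 genes passed with each of T3+CORT and CORT (16.7%, against 26.5% and 26.3% of all genes). Atg12, the ubiquitin-like protein that is joined to Atg5 to form the ligase for LC3, read 1685, 1638 and 1755 on the T3+CORT arrays, 1572, 1742 and 1584 on the CORT arrays, 1291, 1254 and 1237 on the T3 arrays and 1141, 1318 and 1311 on the vehicle arrays. Every T3+CORT and CORT array lay above every T3 and vehicle array. Atg12 rose by 0.43 (95% interval 0.26 to 0.60, adjusted p = 0.0012) on the log2 scale with T3+CORT and by 0.38 (95% interval 0.21 to 0.55, adjusted p = 0.0031) with CORT, and was at 0.01 (adjusted p = 1.0) with T3. Without any 1 of the 12 arrays its adjusted p stayed between 4.1e-04 and 0.011 with T3+CORT and between 0.0013 and 0.024 with CORT. The gene was read by 1 probe.

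The partners of Atg12 did not pass. Atg5 read 1462 to 1522 with T3+CORT, 1314 to 1455 with CORT, 1291 to 1446 with T3 and 1302 to 1410.0 with vehicle, and its log2 fold change was 0.15 (adjusted p = 0.17) with T3+CORT and 0.04 (adjusted p = 0.71) with CORT. Atg16l1, the third part of that ligase, was at 0.01 (adjusted p = 0.95) with T3+CORT and -0.08 (adjusted p = 0.54) with CORT. Atg7, the activating enzyme of the system, was at -0.07 (adjusted p = 0.56) and -0.19 (adjusted p = 0.091) in the same order, Atg3, the conjugating enzyme for LC3, at 0.02 (adjusted p = 0.93) and -0.11 (adjusted p = 0.60), and Atg4b, the protease that trims LC3, at 0.18 (adjusted p = 0.15) and 0.12 (adjusted p = 0.38). Atg3, Atg4b and Atg7 read close to the limit of 100, Atg3 below it on 7 of 12 arrays and Atg7 on 2 CORT arrays, which leaves little room to see a fall.

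Within the Atg8 family, whose proteins coat the autophagosome membrane, CORT moved 2 members in opposite directions. Map1lc3b, which encodes LC3B, read 926, 930.3 and 1095 on the T3+CORT arrays, 1145, 949 and 954 on the CORT arrays, 724, 429 and 636 on the T3 arrays and 659, 739 and 681 on the vehicle arrays. All T3+CORT and CORT arrays were above all T3 and vehicle arrays, and T3 replicate 2 was the lowest. Map1lc3b rose by 0.50 (95% interval 0.19 to 0.81, adjusted p = 0.021) on the log2 scale with T3+CORT and by 0.55 (95% interval 0.24 to 0.86, adjusted p = 0.013) with CORT, and was at -0.25 (adjusted p = 0.95) with T3. The T3+CORT call was lost without vehicle replicate 1, vehicle replicate 3 or T3+CORT replicate 3, with adjusted p up to 0.091, and the CORT call without vehicle replicate 1 or CORT replicate 1, with adjusted p up to 0.063.

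Gabarap, the founding member of the other branch of the family, read 5104, 4802 and 5376 on the T3+CORT arrays, 4954, 5076 and 4674 on the CORT arrays, 7109, 6453 and 6021 on the T3 arrays and 6149, 6480.0 and 6459 on the vehicle arrays. Here every T3+CORT and CORT array was below every T3 and vehicle array. Gabarap fell with both treatments, with a log2 fold change of -0.32 (95% interval -0.48 to -0.17, adjusted p = 0.0053) with T3+CORT and -0.38 (95% interval -0.53 to -0.22, adjusted p = 0.0019) with CORT. No array that was left out ended either call, and the adjusted p reached at most 0.031 with T3+CORT and 0.012 with CORT.

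Map1lc3a, encoding LC3A, read 379, 398 and 363 on the T3+CORT arrays, 388, 494 and 473 on the CORT arrays, 325, 327 and 420.2 on the T3 arrays and 344, 375 and 371 on the vehicle arrays. The CORT arrays lay above vehicle without overlap, but the change missed the threshold, with a log2 fold change of 0.31 (95% interval 0.07 to 0.54, adjusted p = 0.052), and with T3+CORT it was 0.07 (adjusted p = 0.70). A second Map1lc3a probe, near the limit of 100, was at -0.17 (adjusted p = 0.19) with CORT. Gabarapl1, close in sequence to Gabarap, was at -0.18 (adjusted p = 0.37) with T3+CORT and -0.20 (adjusted p = 0.33) with CORT, and its T3 arrays (1059, 1758 and 1130.2) spanned the range of all the others. The 3 probes of Gabarapl2 read between 49.6 and 86.8 and were not tested.

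None of the 3 tested cargo receptor genes passed against vehicle, where 26.5% of all genes did with T3+CORT and 26.3% with CORT. Sqstm1, which encodes the ubiquitin-binding receptor p62, itself a substrate of autophagy, read 7759.6, 7409 and 7590.1 on the T3+CORT arrays, 7239.7, 7786 and 7287 on the CORT arrays, 7088, 8291 and 8162 on the T3 arrays and 8162, 7683 and 8189.9 on the vehicle arrays. All 4 groups overlapped, with a log2 fold change of -0.08 (95% interval -0.23 to 0.07, adjusted p = 0.44) with T3+CORT and -0.11 (95% interval -0.26 to 0.04, adjusted p = 0.28) with CORT. Bnip3l, a mitophagy receptor of the outer mitochondrial membrane, was at -0.03 (adjusted p = 0.83) and 0.00 (adjusted p = 1.0) in the same order. Bnip3, its relative, was below the limit on every array with its only probe, at 51.3 to 70.9, and Optn, the gene of the receptor optineurin, had no probe.

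Nbr1, a receptor built like p62, read 206, 213 and 209.7 on the T3+CORT arrays, 169.8, 169 and 189 on the CORT arrays, 181, 195 and 188 on the T3 arrays and 207, 186 and 198 on the vehicle arrays. Its T3+CORT arrays lay above the CORT arrays without overlap, the CORT arrays overlapped vehicle, and no change against vehicle passed, at 0.09 (adjusted p = 0.44) with T3+CORT and -0.17 (adjusted p = 0.15) with CORT. A second Nbr1 probe was at -0.15 (adjusted p = 0.19) and -0.21 (adjusted p = 0.077).

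The transcription factors gave little to measure. Tfe3 read 354 to 381 with T3+CORT, 400.2 to 449.8 with CORT, 367 to 437 with T3 and 346 to 419 with vehicle, and its log2 fold change was -0.07 (adjusted p = 0.64) with T3+CORT and 0.14 (adjusted p = 0.32) with CORT. Both Tfeb probes stayed between 53.6 and 78.1 and were not tested. The activity of these factors is set largely by their movement into the nucleus, which an array does not read.

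TFEB and TFE3 bind the CLEAR element, whose core is TCACGTGA, a form of the E-box CACGTG. The start-site windows of RefSeq (build GRCm38.p6, 250 bases before to 50 after each annotated start) held 36 windows for 30 of the 36 genes. The CLEAR core, searched on both strands, was in 4 of the 36 windows (11.1%), those of Ctsa, Ctsd, Mcoln1 and Atg3, and in 0.974% of all 32851 windows and 2.09% of the 8940 windows of genes with a tested probe. CACGTG, which every CLEAR core contains, was in 10 of the 36 (27.8%), also those of Lamp1, Ctsl, Atg5, Atg7, Atg14 and Bnip3, against 7.15% and 10.3%. The 110 bases before the start are shown for the 4 genes with a CLEAR core and for Lamp1, which had the most CACGTG matches (4), to set these letters beside the measured change of each gene. Capitals mark TCACGTGA and CACGTG; a match is a run of letters and not a shown binding site.
Mcoln1: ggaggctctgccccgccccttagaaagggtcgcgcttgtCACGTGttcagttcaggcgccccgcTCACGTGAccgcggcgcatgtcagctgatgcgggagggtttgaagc
Lamp1: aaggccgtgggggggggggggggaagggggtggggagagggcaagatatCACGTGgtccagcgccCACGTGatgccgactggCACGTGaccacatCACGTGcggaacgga
Ctsa: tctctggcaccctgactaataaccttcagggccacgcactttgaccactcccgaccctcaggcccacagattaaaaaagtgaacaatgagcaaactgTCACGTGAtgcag
Ctsd: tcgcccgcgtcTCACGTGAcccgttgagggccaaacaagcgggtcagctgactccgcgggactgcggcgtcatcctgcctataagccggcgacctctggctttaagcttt
Atg3: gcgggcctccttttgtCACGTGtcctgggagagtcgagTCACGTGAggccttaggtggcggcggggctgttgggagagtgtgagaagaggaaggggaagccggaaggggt
The stretches lie at chr8:3500409-3500518 on the plus strand for Mcoln1, chr8:13159051-13159160 on the plus strand for Lamp1, chr2:164833663-164833772 on the plus strand for Ctsa, chr7:142387828-142387937 on the minus strand for Ctsd and chr16:45158719-45158828 on the plus strand for Atg3. The CLEAR core begins 46 bases before the start in Mcoln1, 13 in Ctsa, 99 in Ctsd and 72 in Atg3, and Ctsa has another just after the start. Of these 5 genes Mcoln1 alone passed with CORT, where the log2 fold change was -0.38 for Mcoln1, 0.22 for Ctsd, 0.02 for Ctsa, -0.11 for Atg3 and -0.01 for Lamp1. The palindromic glucocorticoid response element, AGAACA and TGTTCT with 3 bases between them (in 0.00913% of all windows), the FOXO motif GTAAACA (3.65%) and the thyroid hormone response element, AGGTCA repeated after 4 bases (0.0152%), searched on both strands, were in none of the 36 windows.

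Of the lysosomal membrane genes Mcoln1 fell with CORT alone. It encodes the calcium channel TRPML1, which releases calcium from lysosomes and acts upstream of TFEB. Its signal was 203, 192 and 202 on the T3+CORT arrays, 166, 182 and 173 on the CORT arrays, 196, 247 and 214 on the T3 arrays and 225, 201 and 253 on the vehicle arrays. The CORT arrays were the lowest of the 12, whereas the T3+CORT arrays overlapped both T3 and vehicle. The log2 fold change was -0.18 (95% interval -0.39 to 0.03, adjusted p = 0.21) with T3+CORT and -0.38 (95% interval -0.59 to -0.17, adjusted p = 0.013) with CORT, and the difference between these treatments did not pass (0.20, adjusted p = 0.56). Without vehicle replicate 3, the brightest vehicle array for this gene, the adjusted p with CORT was 0.074.

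Lamp1 and Lamp2 encode the abundant glycoproteins that line the lysosomal membrane, and neither passed with its brightest probe. Lamp1 read 4241 to 4511 with T3+CORT, 4070.5 to 4934 with CORT, 4274 to 5011 with T3 and 4373 to 5071 with vehicle, and its log2 fold change was -0.08 (95% interval -0.27 to 0.10, adjusted p = 0.52) with T3+CORT and -0.01 (95% interval -0.20 to 0.18, adjusted p = 0.95) with CORT. Lamp2, one of whose splice forms takes part in chaperone-mediated autophagy, was read by 6 tested probes with log2 fold changes of -0.26 to 0.14 with T3+CORT and -0.20 to 0.19 with CORT. A single one of these passed, ILMN_3074259, which fell with T3+CORT by 0.26 on the log2 scale (adjusted p = 0.048) and was at -0.20 (adjusted p = 0.12) with CORT.

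No hydrolase or activator among the 6 members passed against vehicle, where 26.5% of all genes did with T3+CORT and 26.3% with CORT. Ctsd, encoding the aspartic protease cathepsin D, read 146, 133 and 155 on the T3+CORT arrays, 143, 149 and 154 on the CORT arrays, 129.8, 119 and 135 on the T3 arrays and 132, 121 and 129 on the vehicle arrays. Its T3+CORT and CORT arrays all lay above the vehicle arrays, by 0.18 (95% interval 0.01 to 0.36, adjusted p = 0.12) with T3+CORT and 0.22 (95% interval 0.04 to 0.40, adjusted p = 0.063) with CORT on the log2 scale, short of the threshold. Ctsb, encoding cathepsin B, spread most, at 5051, 2827 and 4500.4 on the T3 arrays with replicate 2 far below the rest, and its log2 fold change was 0.04 (adjusted p = 0.88) with T3+CORT and 0.22 (adjusted p = 0.37) with CORT.

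Ctsl, the gene of cathepsin L, was at 0.01 (adjusted p = 0.92) with T3+CORT and 0.17 (adjusted p = 0.17) with CORT, and Ctsa, the gene of the protective protein that stabilizes lysosomal glycosidases, at 0.17 (adjusted p = 0.31) and 0.02 (adjusted p = 0.91). Hexa, encoding a subunit of beta-hexosaminidase, was at 0.11 (adjusted p = 0.41) and 0.11 (adjusted p = 0.40), and Psap, the precursor of the saposins that help degrade sphingolipids, at -0.07 (adjusted p = 0.65) and -0.15 (adjusted p = 0.32). Ctsa read 358, 369.6 and 359 on the T3+CORT arrays, above the CORT (319 to 333) and vehicle (317 to 328) arrays without overlap, while its T3 arrays spread over 282 to 428, the highest being replicate 2. Ctsl and Psap overlapped vehicle with T3+CORT, and Hexa and Psap did so with CORT.

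**Figure D3:**
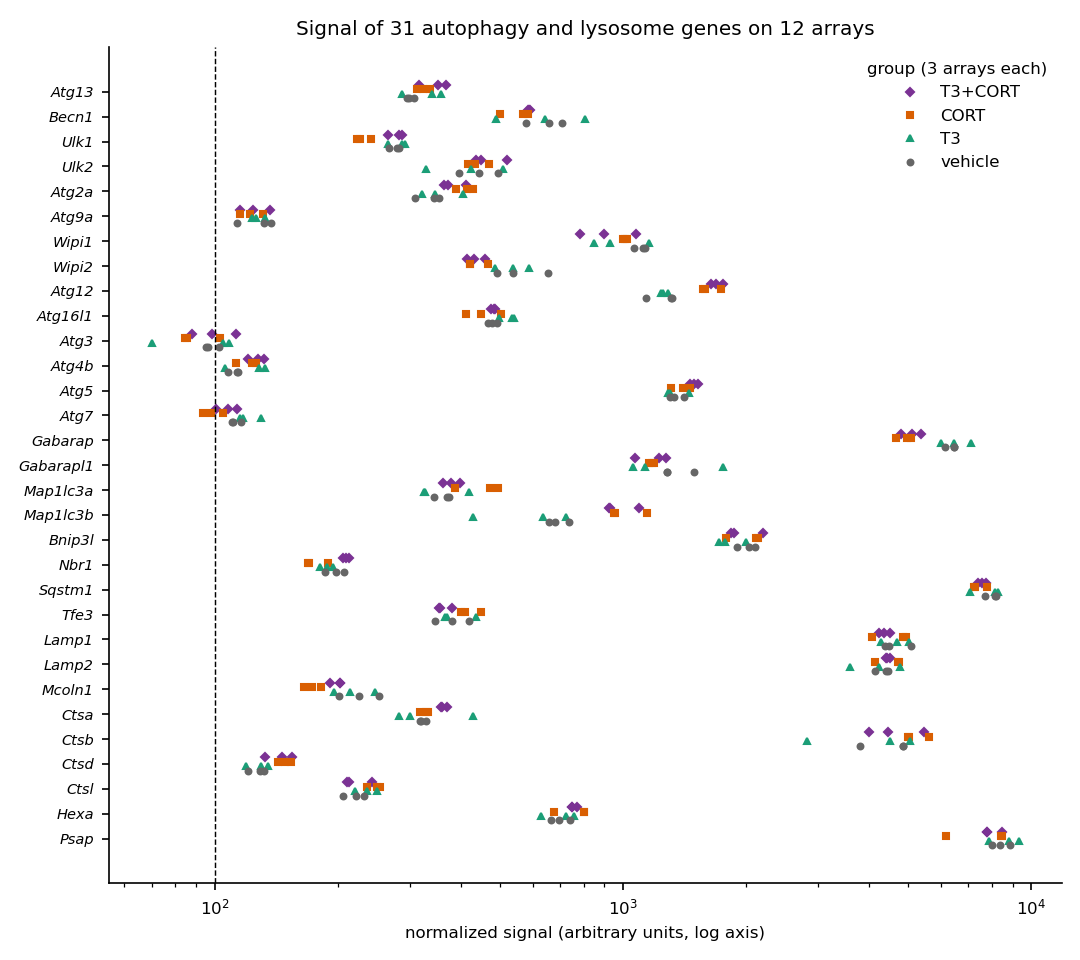
Normalized signal (arbitrary units, log axis) on each of the 12 arrays for the brightest tested probe of 31 genes, in rows by role; symbols stand for T3+CORT, CORT, T3 and vehicle, and the dashed line marks the limit of 100. Levels of different probes are not comparable; within a row, Gabarap and Ulk1 show the CORT symbols to the left of vehicle, and Map1lc3b and Atg12 to the right.

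T3 alone changed none of these genes past the threshold. The log2 fold changes of the 31 ranged from -0.25 (Map1lc3b, whose T3 replicate 2 read 429) to 0.13 (Atg16l1), with a median standard error of 0.09. The T3 arrays spread more than the others, with root mean square deviations from their group mean of 0.113 to 0.177 on the log2 scale over all tested probes, against 0.076 to 0.113 on the arrays of the other groups.

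Whether T3 changed the response to CORT was asked in 2 ways. T3+CORT against CORT gave 0 of 31 genes at an adjusted p under 0.05, where 0.772% of all genes passed, and 4 at an unadjusted p under 0.05 (10.3% of all genes). Among brightest probes the largest difference was that of Ulk1, higher with T3+CORT by 0.28 (95% interval 0.11 to 0.44, adjusted p = 0.19) on the log2 scale. That probe read 266 to 287 with T3+CORT and 223 to 241 with CORT, without overlap. The second Ulk1 probe overlapped, at 164 to 188 with T3+CORT and 155 to 167 with CORT. Nbr1 followed with 0.25 (95% interval 0.09 to 0.42, adjusted p = 0.24), and Map1lc3a and Tfe3 were lower with T3+CORT, at -0.24 (adjusted p = 0.50) and -0.20 (adjusted p = 0.52). The second Nbr1 probe read 142.1 to 149.9 with T3+CORT and 139.9 to 142.1 with CORT.

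The interaction, the effect of T3+CORT beyond the sum of both single effects on the log2 scale, passed for 0 of 31 genes (0.164% of all genes) and had an unadjusted p under 0.05 for 2 (7.03% of all genes). Over the 50 tested probes neither comparison called any, where 0.669% of all probes passed for T3+CORT against CORT and 0.138% for the interaction. With the brightest probes the interaction was 0.32 (95% interval 0.08 to 0.56, adjusted p = 0.57) for Nbr1 and 0.25 (95% interval 0.01 to 0.49, adjusted p = 0.72) for Ulk1. The second Ulk1 probe had mean signals of 174 with T3+CORT, 159 with CORT, 208 with T3 and 187 with vehicle. For the second Nbr1 probe these were 146, 141, 158 and 163 in the same order. The CORT calls of Ulk1, Mcoln1 and Atg2a that T3+CORT did not make are not shown to differ between the treatments.

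T3+CORT against T3, the effect of CORT in the presence of T3, gave 4 of 31 genes (12.9%, against 29.0% of all genes, 14.3% higher and 14.7% lower), and 5 at an unadjusted p under 0.05 (42.0%). Map1lc3b was higher by 0.75 (95% interval 0.44 to 1.06, adjusted p = 0.0017) on the log2 scale, the only change of over 1.5-fold among the brightest probes in any comparison (3.38% of all genes passed the limits of the methods here), and Atg12 by 0.42 (95% interval 0.26 to 0.59, adjusted p = 0.0013). Gabarap was lower, at -0.36 (95% interval -0.51 to -0.20, adjusted p = 0.0027), and so was Wipi2, at -0.30 (95% interval -0.53 to -0.07, adjusted p = 0.048). Without T3 replicate 2 the Map1lc3b difference was 0.53, and its call was kept whichever array was left out. The Wipi2 call ended without any 1 of 8 arrays (vehicle replicate 2, T3 replicates 1 and 2, CORT replicates 2 and 3 and the 3 T3+CORT arrays), with adjusted p up to 0.14.

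Probes of one gene often differed. With T3+CORT against T3, 12 of the 50 tested probes passed (26.3% of all probes), 8 of them probes other than the brightest, of Ulk1, Ulk2, Atg2a, Wipi2 (2 probes), Lamp2, Ctsa and Psap. Among the Wipi2 probes the brightest and the second fell there, and the third rose (0.30, adjusted p = 0.028). Of the 12 genes with more than 1 tested probe, 5 had probes of both signs with CORT: Ulk2, Atg2a, Wipi1, Map1lc3a and Lamp2. For Ulk1 and Wipi2 a second probe bore the same call. Map1lc3b, Atg12, Gabarap and Mcoln1 each rest on a single probe.

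**Figure D4:**
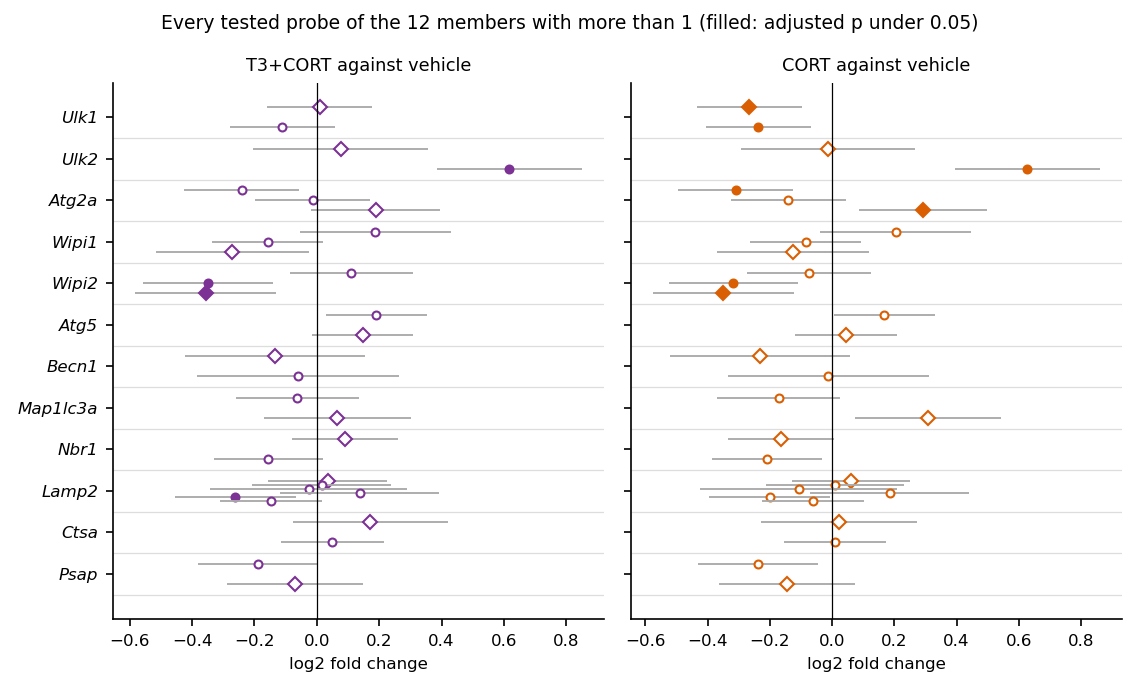
Log2 fold change with 95% intervals (horizontal axis) of every tested probe of the 12 genes with more than 1, for T3+CORT against vehicle on the left and CORT against vehicle on the right; diamonds are the brightest probe, circles the others, and filled symbols have an adjusted p under 0.05. The probes of Ulk2 and Atg2a part company with CORT, at -0.01 and 0.63 for Ulk2 and 0.29 and -0.31 for Atg2a.

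A wider list of 158 further genes of the pathway gave 146 with a probe and 120 tested. With T3+CORT 29 passed (17 higher and 12 lower, 24.2%, against 26.5% of all genes), and with CORT 30 (14 higher and 16 lower, 25.0%, against 26.3%). With T3 a single one passed (0.833%, against 0.105%). The number called was as low as 19 with T3+CORT without vehicle replicate 1, and with CORT 17 without vehicle replicate 3 and 19 without vehicle replicate 2. The share of all genes called was not counted in these fits.

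Among the genes that sort cargo to lysosomes, 4 of 12 passed with T3+CORT (33.3%, against 26.5% of all genes). With CORT 3 of 12 passed (25.0%, against 26.3%). All of these calls were falls, where 13.0% of all genes fell with T3+CORT and 13.4% with CORT. The median log2 fold change of the 12 genes was -0.09 with T3+CORT and -0.20 with CORT, beside -0.01 and -0.01 over all genes. Vps16, a core subunit of the tethering complexes of late endosomes, read 696, 655 and 687 on the T3+CORT arrays, 699.5, 700.3 and 673 on the CORT arrays, 1111, 1054 and 823 on the T3 arrays and 1058, 908 and 902 on the vehicle arrays. Its T3+CORT and CORT arrays all lay below the others, at -0.49 (95% interval -0.71 to -0.27, adjusted p = 0.0033) with T3+CORT and -0.46 (95% interval -0.68 to -0.24, adjusted p = 0.0047) with CORT. Its other 3 tested probes did not pass, at -0.12, -0.27 and -0.22 with CORT.

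Rab7, the GTPase of late endosomes and of autophagosome fusion, read 2269, 2156 and 2586 on the T3+CORT arrays, 2311, 2118 and 2269 on the CORT arrays, 3465, 2875 and 3234 on the T3 arrays and 3141, 3152 and 3175 on the vehicle arrays with its brightest probe. There too the groups with CORT lay below the others without overlap, at -0.44 (95% interval -0.62 to -0.26, adjusted p = 0.0019) with T3+CORT and -0.50 (95% interval -0.68 to -0.32, adjusted p = 6.7e-04) with CORT. Its other tested probes were at 0.13 and -0.17 with CORT and neither passed, so the fall of Rab7 rests on 1 probe of 3.

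Of 23 tested genes for other lysosomal membrane proteins and transporters, 4 rose and 2 fell with T3+CORT (26.1% called, against 26.5% of all genes), and 5 rose and 5 fell with CORT (43.5%, against 26.3%). Ctns, the cystine transporter, read 1251, 1417 and 1390.5 on the T3+CORT arrays, 1398, 1246 and 1309 on the CORT arrays, 929.7, 1050.2 and 935 on the T3 arrays and 936, 937 and 854 on the vehicle arrays. It rose by 0.57 (95% interval 0.39 to 0.75, adjusted p = 2.4e-04) with T3+CORT and 0.54 (95% interval 0.36 to 0.71, adjusted p = 3.7e-04) with CORT, with no overlap with T3 or vehicle. Ostm1, a partner subunit of the lysosomal chloride transporter ClC-7, had the largest fall on the wider list, reading 1742, 1550.1 and 1819 on the T3+CORT arrays, 1062, 1378 and 1273 on the CORT arrays, 2099, 1846 and 1953 on the T3 arrays and 1969.7, 1966 and 2277 on the vehicle arrays, at -0.75 (95% interval -0.96 to -0.53, adjusted p = 9.5e-05) with CORT. With T3+CORT its log2 fold change was -0.28 (adjusted p = 0.055), and T3+CORT lay above CORT by 0.47 (95% interval 0.25 to 0.68, adjusted p = 0.046). That difference lost its call without any 1 of 10 arrays (all but T3 replicates 1 and 2, with adjusted p up to 0.25), and the interaction was 0.54 (adjusted p = 0.25).

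Npc2, which hands cholesterol to NPC1 inside the lysosome, rose with CORT (0.60, adjusted p = 0.0042), reading 846 to 968 with CORT against 543 to 666 with vehicle. Tpcn1, a cation channel of endosomes and lysosomes, fell, at -0.43 (adjusted p = 0.0021) with T3+CORT and -0.58 (adjusted p = 2.0e-04) with CORT. Laptm4b, a membrane protein of late endosomes, rose with CORT (0.40, adjusted p = 0.016), but not without vehicle replicate 3, CORT replicate 2 or CORT replicate 3. Of the 16 tested subunit genes of the proton pump (V-ATPase), 1 rose and none fell with T3+CORT (6.25% called, against 26.5% of all genes), and none rose and 3 fell with CORT (18.8%, against 26.3%).

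Among 21 genes for glycosidases, sulfatases and lipases, 6 rose and 2 fell with T3+CORT (38.1% called, against 26.5% of all genes), and 4 rose and 2 fell with CORT (28.6%, against 26.3%). Lipa, lysosomal acid lipase, read 637, 652 and 636 on the T3+CORT arrays, 779, 603 and 581 on the CORT arrays, 769, 738 and 849 on the T3 arrays and 876, 908 and 900.0 on the vehicle arrays. The log2 fold change of Lipa was -0.48 (95% interval -0.69 to -0.27, adjusted p = 0.0031) with T3+CORT and -0.46 (95% interval -0.68 to -0.25, adjusted p = 0.0039) with CORT, and a second probe did not pass (-0.15, adjusted p = 0.47 with T3+CORT). Naglu and Sgsh, enzymes of heparan sulfate breakdown, rose, Naglu with T3+CORT (0.45, adjusted p = 0.023) and Sgsh with both T3+CORT (0.34, adjusted p = 0.026) and CORT (0.39, adjusted p = 0.013). The Naglu call ended without vehicle replicate 1, vehicle replicate 3, T3+CORT replicate 1 or T3+CORT replicate 3, and the CORT call of Sgsh without vehicle replicate 3, CORT replicate 1 or CORT replicate 3.

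Of the other autophagy genes on the wider list, 1 of 12 for initiation and lipid kinases rose and 2 fell with T3+CORT, and likewise with CORT (25.0% called with each, against 26.5% and 26.3% of all genes). Of 15 for conjugation and scaffolds 2 rose with T3+CORT, and 1 rose and 1 fell with CORT (13.3% with each). Of 9 for receptors and cofactors 1 rose and 1 fell with T3+CORT (22.2%) and 1 rose with CORT (11.1%). Among 7 further lysosomal proteases 1 rose and 1 fell with T3+CORT (28.6%) and none passed with CORT, and of 5 further transcription factors 1 rose with T3+CORT and 2 of the 5 with CORT. Atg101, a subunit of the ULK complex, read 2014, 2015 and 1771 on the T3+CORT arrays, 1615, 1584 and 1694 on the CORT arrays, 1166, 1422 and 1507 on the T3 arrays and 1411, 1417 and 1368 on the vehicle arrays. It rose by 0.47 (95% interval 0.27 to 0.66, adjusted p = 0.0022) with T3+CORT and was at 0.22 (adjusted p = 0.093) with CORT. Snap29, a SNARE of autophagosome fusion, rose by 0.53 (95% interval 0.23 to 0.83, adjusted p = 0.014) with T3+CORT and was at 0.36 (adjusted p = 0.080) with CORT. The Snap29 call ended without vehicle replicate 1 or T3+CORT replicate 3, and the differences of both genes between T3+CORT and CORT did not pass (0.24, adjusted p = 0.37 for Atg101 and 0.17 (adjusted p = 0.78) for Snap29).

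Trp53inp2, a nuclear and cytoplasmic protein that binds Atg8 proteins, was the one gene of the wider list called with T3. It read 268, 259 and 254 on the T3+CORT arrays, 178, 200.3 and 206 on the CORT arrays, 304, 327 and 275 on the T3 arrays and 201, 203 and 205 on the vehicle arrays. The T3 and T3+CORT arrays lay above the CORT and vehicle arrays without overlap, and the CORT range of 178 to 206 enclosed that of vehicle. The log2 fold change was 0.36 (95% interval 0.18 to 0.54, adjusted p = 0.0070) with T3+CORT, -0.06 (95% interval -0.24 to 0.12, adjusted p = 0.65) with CORT and 0.57 (95% interval 0.39 to 0.75, adjusted p = 0.0072) with T3. T3+CORT lay above CORT by 0.42 (95% interval 0.24 to 0.60, adjusted p = 0.033). The T3 call ended without any 1 of the 3 vehicle arrays (adjusted p up to 0.063), and that between T3+CORT and CORT without any 1 of the 9 arrays of the vehicle, CORT and T3+CORT groups (up to 0.17).

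**Figure D5:**
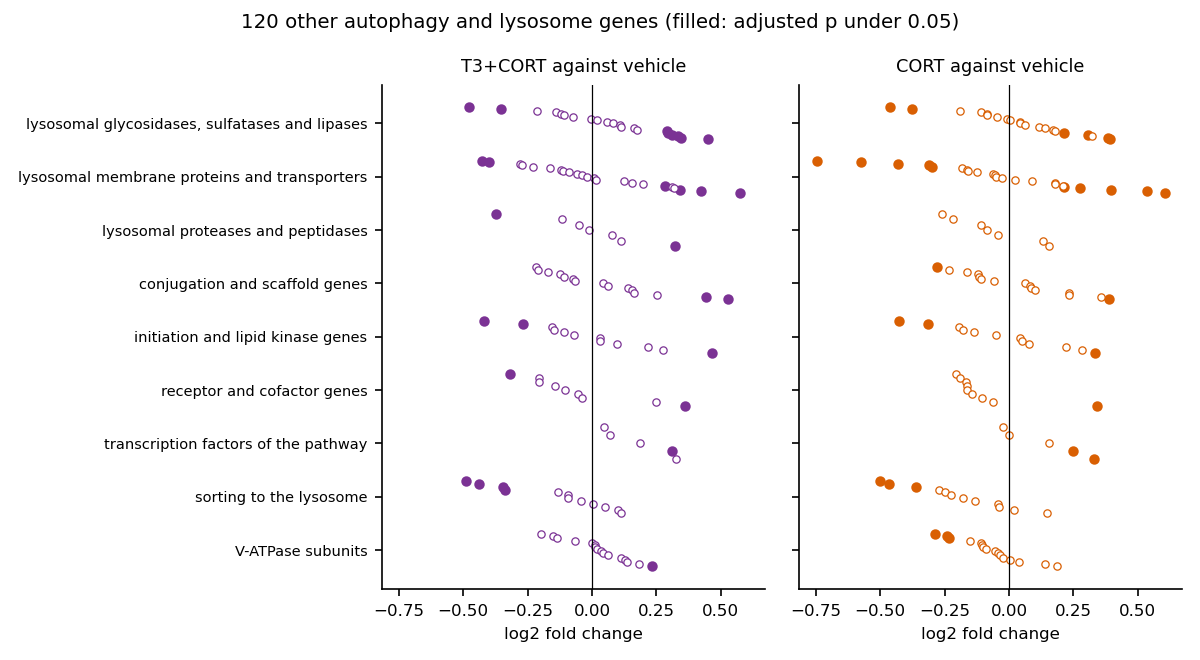
Log2 fold change (horizontal axis) of the 120 further pathway genes, in rows by group of genes, for T3+CORT against vehicle on the left and CORT against vehicle on the right; filled points have an adjusted p under 0.05. In the row for sorting to the lysosome 4 of 12 points are filled with T3+CORT and 3 with CORT, all on the negative side. These are 33.3% and 25.0%, against 26.5% and 26.3% of all genes. The row of lysosomal membrane proteins holds 5 filled points on each side with CORT (43.5%, against 26.3%).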

How the data were processed

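RNA from HT-22 cultures was hybridized to Illumina Mouse WG-6 v2.0 bead arrays, 3 per condition. The values are hybridization intensities that the authors normalized between arrays (rank invariant, in BeadStudio) and deposited on a linear scale. The 12 columns share 1 distribution, differing by at most 0.5 at any rank, as quantile normalization would leave them. Signals ran from 40.0 to 43897.9 in arbitrary units. A further table of 12 raw signal and 12 detection p columns (24 in all) was not used, because its column names match no sample label, and a signal limit of 100 on at least 3 of 12 arrays took the place of detection. Platform annotation gave 1 symbol to 34885 probes, several to 18 and none to 10378.

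Signals were put on the log2 scale and fitted over all 12 arrays and 15255 probes with limma 3.58.1 (R 4.3.3), group means, eBayes with an intensity trend and Benjamini-Hochberg adjustment over all tested probes, and a call was an adjusted p under 0.05. A gene stands for its brightest tested probe. Replicates were treated in triplicate and nothing further says that they were separate cultures, so p-values measure the spread between these samples, and the number of arrays limits the precision. Tables were made with python 3.11.15, pandas 2.3.3 and numpy 2.4.6, and promoter windows are those of RefSeq, build GRCm38.p6.

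Members were listed by symbol and no measured value entered the choice. Earlier results of these data were known when members and gene lists were written. Members were named in full when called against vehicle with at least 1.25-fold, other pathway genes when among the 4 largest called rises or falls of a comparison with vehicle. Ulk1, Ulk2, Atg2a, Map1lc3a, Sqstm1, Nbr1, Ctsa, Ctsd and the dimmer probes fall outside this rule and were given in full after their values were seen; the remaining members are given by range or fold change. Alternatives were other filters (limits of 80, 150 or none), the mean of a gene's probes, array weights, cyclic loess, normexp with quantile normalization, no intensity trend, only the groups compared, a replicate block and leaving out each array. A Welch t-test on log2 signals and the thresholds of the methods, set on limma p-values, were also run.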

Additional observations from a re-analysis of the deposited data

How the results depend on the processing

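With T3+CORT, CORT and T3+CORT against T3, 4, 7 and 4 of the 31 genes were called. A Welch t-test on log2 signals with Benjamini-Hochberg adjustment called 1, 0 and 0. The paper names Welch's test for its synergy comparison and names no test for calls against vehicle. The methods' thresholds (unadjusted p under 0.02 and 1.5-fold), applied here to limma p-values, called 0, 0 and 1. Array weights raised the T3+CORT count to 7. Leaving out each array in turn gave 2 to 5 with T3+CORT, 3 to 9 with CORT, 0 to 0 with T3 and with T3+CORT against CORT, 3 to 4 with T3+CORT against T3 and 0 to 0 for the interaction. Of the 120 further genes, the t-test called 4 with T3+CORT, 1 with CORT and 0 with T3, the thresholds 0, 2 and 0, array weights 45 with T3+CORT, and a fit of only the groups compared 0 with T3; leaving out arrays gave 19 to 37, 17 to 39 and 0 to 1. All other alternatives that were run kept each count within 1.5 times. Among the alternatives, the share of all genes called was counted only for the methods' thresholds. The mean of its probes turned Atg2a with CORT to -0.053, since its probes oppose each other, and ended the calls of Wipi2 (adjusted p = 0.12 with T3+CORT and 0.055 with CORT), Rab7 (0.73 and 0.25) and Vps16 with T3+CORT (0.16). With no signal limit Ulk1 (0.076) and Atg2a (0.091) missed the threshold with CORT, as more probes were tested. Over 42 named results and the alternatives other than leaving out an array, 400 values kept direction and side of the threshold, 95 kept direction only and 1 turned.

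Replicate numbers showed no pairing over all groups: deviations of same-numbered arrays correlated at -0.3 to 0.47, with 7 of 18 pairs above 0.1, and of differently numbered arrays at -0.42 to 0.45, with 12 of 36. Same-numbered arrays of T3 and CORT correlated at 0.47, 0.38 and 0.1, and those of vehicle and T3 at -0.28, -0.3 and 0.16. Whether some arrays shared a batch was not tested. With the replicate number as a block 4 genes were called with T3+CORT, 8 with CORT and 4 with T3+CORT against T3, and of the named genes Ostm1 alone lost a call, T3+CORT against CORT (adjusted p = 0.051). A slide block and Illumina's background correction from control probes were not run, since the labels name no slides and the raw columns are not tied to samples, and the interaction was not run for the t-test or for only the groups compared.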
